A study of Mus musculus with 18 samples.

Results

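Induced cardiomyocyte-like cells (iCMs) at 2 weeks were set against neonatal cardiomyocytes, the cell type that reprogramming of fibroblasts aims at. The comparison used 3 arrays of each, 6 of the 18 arrays of the study. It covered all 19912 genes with at least 1 probe set that named no other gene. The iCMs were GFP+ cells that the labels describe as fibroblasts in which reprogramming succeeded, and the cardiomyocytes were cells of newborn hearts. Both came from CD1 mice. The labels name neither the factors introduced nor the promoter that drives GFP, and give neither the purity of the cardiomyocytes nor whether animals were pooled. RNA was measured on Affymetrix mouse Gene 1.0 ST arrays. Values are log2 intensities per gene, so a difference of 1 is a 2-fold change. Neonatal cardiac fibroblasts and GFP- cells at 2 weeks, in which reprogramming failed, also with 3 arrays each and from CD1 mice, are given as reference levels. The design text calls the arrays biological replicates, but separate cultures or animals are not stated. The p-values therefore reflect only how far arrays of a group vary, estimated over all 6 groups, and this spread may be technical.

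A heart muscle cell contracts when calcium, released from the sarcoplasmic reticulum, lets myosin thick filaments pull on actin thin filaments inside the sarcomere, whose ends are anchored at Z-discs. The energy comes mostly from mitochondria, which in the maturing heart burn fatty acids. Around birth, mouse cardiomyocytes still divide, express ventricular or atrial isoforms of contractile proteins according to their chamber, and shift from growth to oxidative metabolism. Gata4, Mef2c and Tbx5 are the transcription factors most used in the field to turn fibroblasts into iCMs.

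The cardiomyocyte label was borne out by all 10 of its defining markers, Actc1, Myh6, Tnnt2, Tnni3, Actn2, Ryr2, Pln, Nppa, Myl2 and Myl7, whose means in the cardiomyocyte arrays lay between 12.13 and 13.84. In the iCMs, 8 of the 10 stood between 8.84 and 13.73. Pln was at 8.45 there and Myl2 at 6.83. Arrays of 1 group correlated at r = 0.990 to 0.995 across genes and an iCM array with a cardiomyocyte array at 0.919 to 0.925. Array medians over all 18 arrays ran from 7.32 to 7.45, and their highest values from 13.82 to 13.95. A gene near that ceiling, such as Tnnt2, can hide a difference. A mean under 6.16, the lowest 25th percentile of any array, was taken as not above background, and a fold change against it is a lower bound, written "at least".

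Of the 19912 genes, 8381 were called (42.1%; limma, Benjamini-Hochberg adjusted p under 0.05), of which 4524 were higher in iCMs (22.7% of all genes) and 3857 lower (19.4%). A difference of at least 2-fold was called for 2091 genes (10.5%), with 1183 higher (5.94%) and 908 lower (4.56%). At least 4-fold, 291 were higher and 218 lower. The median difference over all genes was -0.01. The arrays of the groups did not overlap for 9505 genes (47.7%). With so many genes called, a list of genes is read below against these shares.

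**Figure D1:**
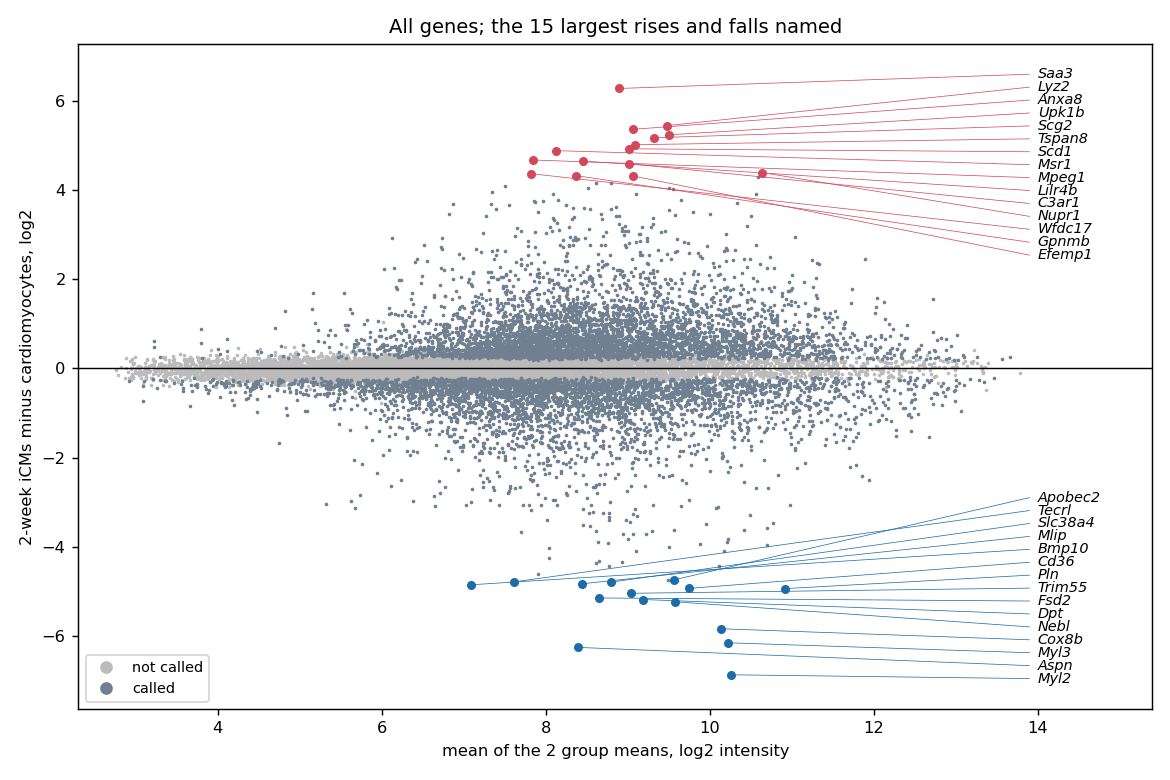
Each point is 1 gene, with the mean of both group means on the horizontal axis and the difference (2-week iCMs minus neonatal cardiomyocytes, log2) on the vertical axis; 8381 called genes are blue-grey and the others light grey. The 15 largest rises (red) and falls (blue) are named, from Saa3 at 6.28 to Myl2 at -6.88.

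The largest falls were led by contractile, mitochondrial and matrix genes. Myl2, the regulatory light chain of ventricular myosin, was at 13.68, 13.72 and 13.70 in the cardiomyocyte arrays and at 6.80, 6.89 and 6.79 in the iCM arrays. The groups lay far apart with almost no spread inside either one, and the cardiac fibroblasts stood at 7.38. The fall was 117-fold (-6.88 ± 0.08 log2, SE, adjusted p = 1.17e-21, n = 3 arrays a group in this and all later comparisons). Myl3, the ventricular essential light chain, was at 13.38, 13.30 and 13.21 in cardiomyocytes and at 7.29, 7.13 and 7.00 in iCMs, and fell 71.4-fold (adjusted p = 2.41e-19). Its iCM arrays too were close to the fibroblast mean of 6.97. Cox8b, the muscle isoform of a cytochrome oxidase subunit, fell 57.4-fold, and Nebl, nebulette, a Z-disc protein that binds thin filaments, 37.7-fold. The other of the 2 Nebl probe sets differed by -1.78, so the size of this fall and its place among the largest depend on the probe set kept.

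The other named falls had lower bounds or fold changes from 10.3 to 41.2. Muscle genes among them were Pln (30.7-fold), Trim55, a ubiquitin ligase of the sarcomere (33.1-fold), Fsd2 (at least 33.7-fold), the lamin-interacting Mlip (at least 26.1-fold), Tecrl, an endoplasmic reticulum protein linked to inherited arrhythmia (at least 14.4-fold), and Apobec2, a muscle deaminase-family protein (26.8-fold). Cd36, the fatty acid importer, fell 30.6-fold and Slc38a4, an amino acid transporter, 27.8-fold. Bmp10, a growth factor made by the myocardium, fell at least 10.3-fold. The remaining named falls were the matrix proteoglycan Aspn (at least 41.2-fold) and the matrix protein Dpt (36.4-fold), which are taken up with the fibroblast genes.

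Among the 15 largest rises were several macrophage genes and 1 gene of the mesothelial list, Upk1b. Saa3, an acute phase protein, was at 5.83, 5.69 and 5.75 in cardiomyocytes and at 12.18, 11.80 and 12.13 in iCMs. The cardiomyocyte arrays were all below background, and the rise was at least 58.8-fold (adjusted p = 2.75e-15). Lyz2, the lysozyme of macrophages, rose 43.6-fold, the scavenger receptor Msr1 at least 21.3-fold, Mpeg1 at least 16.3-fold, Lilr4b at least 24.7-fold, the complement receptor C3ar1 24.1-fold, Wfdc17 at least 14.4-fold and Gpnmb 20.1-fold. Upk1b, a uroplakin found in mesothelium, rose 37.8-fold. Anxa8, an annexin, rose 41.2-fold, Scg2, a granin of secretory granules, 36.1-fold, the tetraspanin Tspan8 32.4-fold, Scd1, which desaturates fatty acids, 30.4-fold, the stress-induced Nupr1 21.0-fold and the matrix protein Efemp1 20.0-fold.

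Some of these genes stood at a like level in fibroblasts and others did not. Saa3 was at 11.83 in the cardiac fibroblasts and at 12.04 in iCMs, a difference that did not pass the test (adjusted p = 0.49). Anxa8 was at 11.64, 11.83 and 11.76 in the iCM arrays, against 6.66 in fibroblasts and 6.38 in cardiomyocytes. Scg2 was at 11.68, 12.12 and 11.91 in the iCM arrays, against 7.40 in fibroblasts and 6.73 in cardiomyocytes. Tspan8 (11.60 against 7.84 and 6.58) and Efemp1 (11.22 against 8.12 and 6.90) showed the same order of levels, as did Scd1 (11.47 against 8.36 and 6.55), Upk1b (12.12 against 9.60 and 6.88) and, by less, Nupr1 (12.84 against 12.17 and 8.45). These 7 genes were called higher in iCMs than in either cell type. The 2-week GFP- cells stood at 8.58 (Anxa8), 9.52 (Scg2), 10.36 (Tspan8), 8.17 (Efemp1), 8.21 (Scd1), 10.13 (Upk1b) and 11.61 (Nupr1). All of these means lay below the iCMs. For Anxa8, Scg2 and Tspan8 they lay well above the fibroblasts, and for Scd1 and Nupr1 below them.

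Thick filament and M-band genes were lower in iCMs for 10 of 13 measured members and higher for 0, with a median difference of -1.62. Myh7, the beta-myosin heavy chain, was at 11.91, 11.79 and 11.88 in cardiomyocytes and at 7.11, 7.18 and 7.06 in iCMs, a 26.8-fold fall. Myh6, the alpha-myosin heavy chain, was at 13.17, 12.96 and 13.08 against 9.93, 11.29 and 10.73, a 5.34-fold fall (-2.42 ± 0.21, adjusted p = 8.45e-09). The 3 iCM arrays of Myh6 spread over more than 1 log2 unit but all lay below the cardiomyocytes and well above the fibroblast mean of 6.70. Mylk3, the cardiac kinase that phosphorylates Myl2, fell 13.1-fold, Myom1, an M-band crosslinker, 6.43-fold, the myosin-binding Mybpc3 3.07-fold and the giant spring protein Ttn 2.27-fold. The atrial light chains did not pass the test. Myl7 differed by -0.34 ± 0.16 (12.95 against 12.61, adjusted p = 0.11) and Myl4 by 0.41 ± 0.25 (13.01 against 13.42, adjusted p = 0.21), and the M-band protein Myom2 by 0.05 ± 0.22.

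Thin filament genes were lower for 9 of 12 members and higher for 0, with a median of -1.25. Tnni1, the slow skeletal troponin I that the fetal heart uses, was at 11.73, 11.55 and 11.27 in cardiomyocytes and at 7.55, 7.53 and 7.41 in iCMs, a 16.2-fold fall. Tnni3, the adult cardiac troponin I, fell 2.92-fold (13.45 against 11.90). The iCMs thus had lower values for both isoforms, and only Tnni1 was close to its fibroblast mean (6.94, against 8.25 for Tnni3). The filament-end proteins Lmod3 and Tmod1 fell 8.94-fold and 8.71-fold, the latter by its brighter probe set, while the other Tmod1 probe set differed by -0.02. Actc1, the cardiac alpha-actin, differed by -0.49 ± 0.26 (13.61 against 13.12, adjusted p = 0.15), Tnnt2 by -0.11 ± 0.16 and tropomyosin Tpm1 by -0.04 ± 0.10. These 3 genes lie high on the array scale. Some of these calls depended on the arrays that set the spread. Fitted on the 6 arrays alone, Actc1 (adjusted p = 0.00259), Myl7 (0.029) and Myl4 (0.0111) were called with the same differences.

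Z-disc and costamere genes were mixed, with 10 of 18 lower, 3 higher and a median of -0.58. Actn2, the sarcomeric alpha-actinin, was at 12.29, 12.12 and 11.99 in cardiomyocytes and at 8.70, 9.01 and 8.82 in iCMs, a 9.80-fold fall (adjusted p = 1.89e-14). Xirp1 fell 3.99-fold and Myoz2, which tethers calcineurin, 3.08-fold. In the other direction Pdlim3, an actinin-binding protein, was at 9.16, 9.30 and 9.10 in cardiomyocytes and at 11.46, 11.81 and 11.67 in iCMs, a 5.51-fold rise. Its iCM arrays lay above the fibroblast mean of 8.09 as well. Flnc, filamin C, rose 1.78-fold and Ankrd1, a stretch-responsive protein, 1.60-fold. Csrp3, a muscle LIM protein, differed by 0.31 ± 0.14 and Cryab, a chaperone of the Z-disc, by 0.25 ± 0.14 (adjusted p = 0.077 and 0.17).

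**Figure D2:**
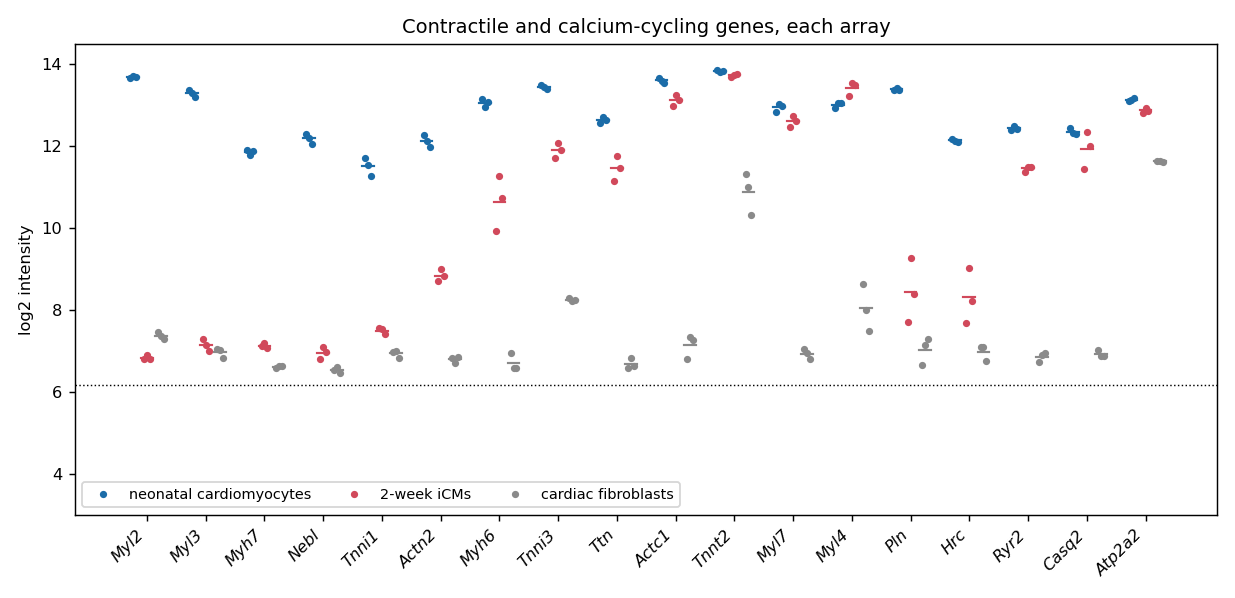
Points are single arrays and bars are means of 3 arrays, as log2 intensity, for 18 contractile and calcium-cycling genes in neonatal cardiomyocytes (blue), 2-week iCMs (red) and cardiac fibroblasts (grey); the dotted line is the background limit of 6.16. From Myl2 to Tnni1 the iCM points lie beside the fibroblasts, while Actc1, Tnnt2, Myl7 and Myl4 lie beside the cardiomyocytes, with Myh6, Pln and Hrc spread in between.

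The intercalated disc joins neighbouring cells, and 8 of its 12 genes were lower in iCMs and 2 higher (median -0.89). The gap junction genes Gja5, Gjc1 and Gja1 fell 10.1-fold, 4.01-fold and 2.50-fold. Gja1, the main ventricular connexin, kept a mean of 10.37 in iCMs against 8.90 in fibroblasts. The desmosomal cadherins Dsc2 and Dsg2 fell 5.08-fold and 3.48-fold. The desmosomal plaque genes were divided. Desmoplakin Dsp rose 1.65-fold and plakoglobin Jup 2.71-fold (9.13 against 10.57, adjusted p = 1.54e-08). Plakophilin Pkp2 fell 1.37-fold (adjusted p = 0.0204), a call lost without iCM array 1 (adjusted p = 0.0562) or cardiomyocyte array 3 (0.0564). Dsp and Jup are also desmosomal genes of epithelium and mesothelium, whose markers rose too, as given further on. Whether those cells bear on Dsp and Jup was not tested.

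Genes of calcium cycling in the sarcoplasmic reticulum were lower for 9 of 14 and higher for 1 (median -0.74). The riser, Fkbp1b, which binds the release channel, differed by 0.27 ± 0.09 (adjusted p = 0.016). Its call was lost without iCM array 2 (adjusted p = 0.0923) or cardiomyocyte array 3 (0.0514), which leaves 0 of 14 higher, and also with the 6 arrays alone (0.0635), quantile (0.0808) and cyclic loess normalization (0.0701). Pln, phospholamban, the brake on the calcium pump, was at 13.37, 13.43 and 13.38 in cardiomyocytes and at 7.70, 9.27 and 8.38 in iCMs. Hrc, the histidine-rich calcium-binding protein of the reticulum, was at 12.18, 12.14 and 12.11 against 7.68, 9.03 and 8.23. The groups did not overlap for either gene, and the falls were 30.7-fold and 14.2-fold. By contrast the pump that Pln inhibits, Atp2a2, differed by only -0.26 ± 0.07 (13.14 against 12.88, adjusted p = 0.0039), a call lost when the 6 arrays were fitted alone (adjusted p = 0.0586). The release channel Ryr2 was at 12.40, 12.49 and 12.43 against 11.38, 11.50 and 11.51, a 1.97-fold fall, while the fibroblasts were at 6.86. Casq1 fell 12.6-fold, sarcalumenin Srl 8.59-fold, triadin Trdn 4.48-fold and the exchanger Slc8a1 3.07-fold. Casq2, the cardiac calsequestrin, differed by -0.43 ± 0.28 and sarcolipin Sln by -0.03 ± 0.26 (adjusted p = 0.25 and 0.95). Trdn has 19 probe sets on the array, all lower in iCMs by -4.38 to -1.67, so its fall depends in size on the probe set. Slc8a1 has 2, at -3.24 and -1.62, of which the brighter gave the value above.

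Ion channel genes were lower for 16 of 22 and higher for 1 (median -0.93). Abcc9, the sulfonylurea receptor of the ATP-sensitive potassium channel, was at 11.00, 11.27 and 11.18 in cardiomyocytes and at 7.19, 7.02 and 6.97 in iCMs, a 17.0-fold fall. Its pore partner Kcnj11 fell 1.41-fold. Kcnj2, the inward rectifier that holds the resting potential, was at 8.49, 8.60 and 8.61 against 5.87, 6.35 and 5.92 and fell at least 5.30-fold. The fibroblasts stood at 8.32 for Kcnj2, so here the iCMs were below both cell types. Kcne1, a potassium channel subunit, fell at least 5.30-fold, Kcnj3 of the muscarinic potassium channel 4.37-fold, and Cacna1c, the pore of the L-type calcium channel, 2.92-fold. The single rise was the pacemaker channel Hcn4 (0.30 ± 0.10, adjusted p = 0.017), which was no longer called without iCM array 2 (adjusted p = 0.0929) or without cardiomyocyte array 3 (0.0653).

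The 3 reprogramming factors were all higher in iCMs than in cardiomyocytes. Tbx5 was at 9.26, 9.39 and 9.30 in cardiomyocytes and at 11.56, 11.58 and 11.63 in iCMs, a 4.83-fold rise. Mef2c rose 2.84-fold (10.24 against 11.74) and Gata4 2.15-fold (9.77 against 10.87, adjusted p = 4.52e-07). The labels do not say whether RNA from introduced copies is part of these values. Of 20 other cardiac transcription regulators, 14 were lower, 1 was higher (Ankrd1) and the median was -0.65. Hopx, a cofactor of cardiac maturation, fell 9.65-fold, Hey2, a repressor of atrial genes in the ventricle, 7.49-fold, the muscle methyltransferase Smyd1 6.90-fold, Prox1 6.06-fold and the serum response factor partner Myocd 5.72-fold. Gata6 fell 2.49-fold while its relative Gata4 rose. Tbx20 (0.08 ± 0.15) and Tbx3 (0.19 ± 0.14) did not pass the test. Nkx2-5 was at 8.41, 8.44 and 8.58 against 8.26, 7.88 and 7.69, a 1.45-fold fall, and its fibroblast mean was 8.06.

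Chamber genes were lower on both sides, and to an unequal degree within each. All 7 measured ventricle-enriched genes were lower (median -3.06), among them Myl2, Myl3, Myh7, Hey2 and Irx4 (3.28-fold). Their mean over the list was 10.36 to 10.44 in cardiomyocyte arrays and 6.54 to 6.68 in iCM arrays, against 6.53 in fibroblasts. Of 10 atrium-enriched genes 6 were lower and 0 higher (median -0.72). Bmp10, Gja5 and Kcnj3 fell, as given above. Nppa, the atrial natriuretic peptide, fell 1.59-fold (13.03 against 12.36, adjusted p = 0.0128), a call lost without iCM array 2 (adjusted p = 0.103). Myl7, Myl4, Sln and Kcnj5 did not pass the test. The difference between the chamber lists was not tested.

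Promoter sequence is printed for 3 sarcomere genes that differ in these data but share a motif, the CArG box bound by serum response factor. Sequences are from RefSeq on GRCm38.p6, the 250 bases before the start of the gene, 5′ to 3′ on the strand of the gene, with the CArG box in capitals. Myl3 (chr9:110763428-110763677, plus strand) fell 71.4-fold. Myl7 (chr11:5898783-5899032, minus strand) and Actc1 (chr2:114052876-114053125, minus strand) did not pass the test.
Myl3: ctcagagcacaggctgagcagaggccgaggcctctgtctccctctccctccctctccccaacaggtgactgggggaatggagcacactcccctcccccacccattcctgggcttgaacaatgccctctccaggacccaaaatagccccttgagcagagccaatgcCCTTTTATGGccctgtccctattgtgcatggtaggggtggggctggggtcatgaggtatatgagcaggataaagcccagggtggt
Myl7: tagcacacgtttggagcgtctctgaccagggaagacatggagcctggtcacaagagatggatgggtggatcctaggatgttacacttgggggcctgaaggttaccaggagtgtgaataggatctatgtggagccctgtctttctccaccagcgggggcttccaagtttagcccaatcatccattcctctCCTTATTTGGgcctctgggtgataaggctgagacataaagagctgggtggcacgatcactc
Actc1: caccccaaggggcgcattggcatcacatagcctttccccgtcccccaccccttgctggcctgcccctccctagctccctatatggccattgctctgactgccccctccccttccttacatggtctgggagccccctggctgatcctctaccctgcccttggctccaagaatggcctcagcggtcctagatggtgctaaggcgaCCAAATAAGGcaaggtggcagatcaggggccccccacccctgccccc

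The CArG box began 85 bases before the start in Myl3, 61 in Myl7 and 47 in Actc1, so a match within this window was found both in a gene with one of the largest falls and in genes that did not pass the test. In windows of 300 bases (250 before and 50 after the start, both strands searched), it was found in 3 of 15 windows of thick filament genes (20%), 3 of 16 of thin filament genes (18.8%) and 4 of 19 of Z-disc genes (21.1%), against 1.63% of all 32851 windows of 27025 genes. Windows were counted and not genes, and a gene with several starts has several (19 Z-disc windows of 13 genes). The Z-disc windows with the CArG box were of Fhl2 and Ldb3 alone, and those of Ldb3 hold the same site. The MEF2 site was in 5 of 19 Z-disc windows (26.3%), 2 of 15 thick filament windows (13.3%) and 0 of 16 thin filament windows, against 3.19% of all windows. More than 1 of these Z-disc windows was of Synpo2l. A match describes these letters and not the binding of a factor.

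A microRNA gene that lies inside a thick filament gene is shown next. Mir208a is encoded in an intron of Myh6, and miR-208a acts in cardiac myosin switching and stress responses. Its mature strands, with the seed (bases 2 to 8) in capitals, come from RefSeq on GRCm38.p6 (chr14:54949072-54949093 and chr14:54949107-54949128, minus strand) and are shown because the host gene fell.
mmu-miR-208a-3p: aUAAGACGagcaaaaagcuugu
mmu-miR-208a-5p: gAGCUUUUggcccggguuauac

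The Mir208a probe set was at 6.84, 6.52 and 6.65 in cardiomyocytes and at 5.57, 5.59 and 5.60 in iCMs, which is below background. The fall was at least 1.43-fold (adjusted p = 8.61e-07), in the same direction as Myh6. Of 287 microRNA genes with a probe set, 50 were called (17.4%, against 42.1% of all genes), 17 higher and 33 lower. Of the 287, 138 were below background in both groups. A probe set for the gene does not separate the precursor from the mature strands.

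Genes of energy metabolism were lower almost throughout. All 20 measured genes of fatty acid uptake and oxidation were lower (median -1.66), 16 of them at least 2-fold. Cd36 was at 12.12, 12.27 and 12.24 in cardiomyocytes and at 6.97, 7.59 and 7.27 in iCMs, against 7.23 in fibroblasts. Fabp3, the heart fatty acid binding protein, fell 5.68-fold, the trifunctional protein subunits Hadhb and Hadha 4.74-fold and 3.46-fold, Hadh 3.89-fold, the carnitine palmitoyltransferase Cpt2 3.34-fold and the acyl-CoA dehydrogenases Acadl, Acadvl and Acadm 3.14-fold, 2.64-fold and 2.46-fold. Cpt1a, the liver-type isoform of the entry enzyme, fell less (1.62-fold), as did Acaa2 (1.47-fold).

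Of 42 measured genes of the respiratory chain and the TCA cycle, 41 were lower and 0 higher, with a median of -1.15. The muscle isoforms of cytochrome oxidase had the largest falls in the list. Cox8b was at 13.03, 13.14 and 13.01 in cardiomyocytes and at 7.38, 7.20 and 7.08 in iCMs. Cox7a1 was at 12.62, 12.80 and 12.64 against 8.57, 8.95 and 8.63 (15.7-fold), and Cox6a2 at 12.48, 12.63 and 12.40 against 9.11, 8.90 and 9.10 (11.0-fold). The isoforms used in other tissues differed much less. Cox8a fell 1.27-fold and Cox7a2 1.68-fold, and Cox6a1 differed by 0.04 ± 0.07 (adjusted p = 0.71). Among TCA cycle enzymes Idh2 fell 8.39-fold and Idh3a 4.52-fold, and among the complex I, II and III subunits Ndufv1 fell 3.54-fold, Sdhb 3.44-fold and Uqcrc2 3.06-fold. The call of Cox6c (1.16-fold) was lost with quantile normalization (adjusted p = 0.0745) and when only the 6 arrays were fitted (0.104).

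Regulators of these genes were lower for 8 of 12 and higher for 1 (median -0.47). Ppargc1a, the coactivator that drives mitochondrial genes, was at 12.29, 12.44 and 12.27 in cardiomyocytes and at 7.48, 8.36 and 7.83 in iCMs, a 21.8-fold fall (adjusted p = 9.11e-13). The nuclear receptor Esrrg fell 2.97-fold, Ppara 2.18-fold, Ppargc1b 2.00-fold and the mitochondrial transcription factor Tfam 1.98-fold. Ppard rose 1.49-fold, and Esrra (-0.08 ± 0.11), Klf15 (-0.16 ± 0.13) and Rxrg (-0.26 ± 0.10) did not pass the test. The site bound by Esrr receptors, searched as TNAAGGTCA on both strands, was in 1 of 40 windows of respiratory genes (2.5%) and 0 of 17 windows of fatty acid genes, against 1.28% of all windows.

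**Figure D3:**
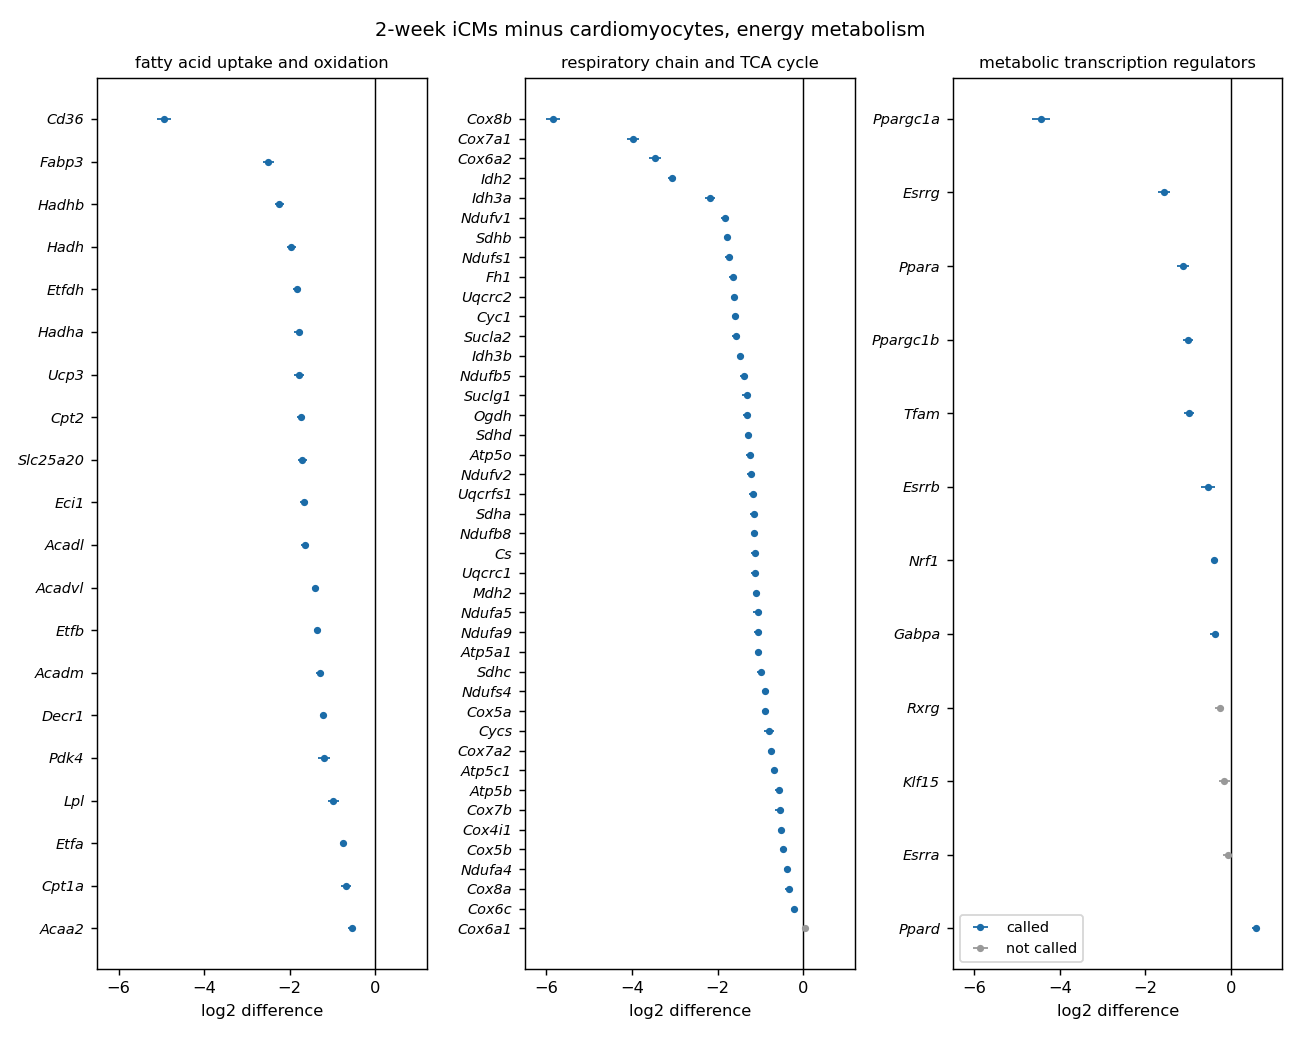
Differences (2-week iCMs minus neonatal cardiomyocytes, log2) with their SE for each measured gene of 3 energy lists; called genes are blue and the others grey. Nearly all points lie left of 0, with Cox8b (-5.84), Cd36 (-4.94) and Ppargc1a (-4.45) at the far end of each panel and Ppard (0.57) the only called gene to the right.

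Muscle genes of glycogen, glycolysis and creatine kinase were lower for 13 of 14 and higher for 1 (median -0.91). Ppp1r3a, which brings a phosphatase to glycogen in muscle, fell 14.8-fold, while Ppp1r3c, a relative with the same role in more tissues, rose 1.85-fold (10.58 against 11.46, with 6.13 in fibroblasts). The mitochondrial creatine kinase Ckmt2 fell at least 10.4-fold, the cytosolic Ckm 5.25-fold, myoglobin Mb 12.0-fold and glycogen phosphorylase Pygm 9.53-fold. Falls under 2-fold were seen for Pgam2 (1.85-fold), Ldhb (1.84-fold) and Eno3 (1.62-fold).

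Cell division genes were lower in iCMs than in the neonatal cardiomyocytes. Of 29 genes of mitosis and cytokinesis, 27 were lower and 0 higher (median -1.49), and of 26 genes of DNA replication and S phase 20 were lower and 1 higher (median -0.66). Cenpf, a kinetochore protein, was at 9.94, 9.55 and 9.34 in cardiomyocytes and at 6.97, 6.90 and 7.03 in iCMs, a 6.24-fold fall. Kif11, the motor that separates spindle poles, was at 9.89, 9.72 and 9.37 against 7.10, 7.26 and 7.42 (5.28-fold), and the proliferation marker Mki67 at 9.62, 9.19 and 9.15 against 7.66, 7.50 and 7.75 (3.21-fold). The groups did not overlap for these 3 genes. Bub1 fell 5.12-fold, the cyclin Ccna2 4.00-fold, Cdk1 3.40-fold, the primase Prim1 4.97-fold and the ribonucleotide reductase subunit Rrm2 3.65-fold. Cenpa, a centromeric histone, differed by 0.37 ± 0.15 (adjusted p = 0.062), and thymidine kinase Tk1 rose 1.17-fold, a call lost under 7 alternatives, with quantile normalization for example (adjusted p = 0.399; 0.069 to 0.399 over the 7). Top2a fell 4.47-fold by its brighter probe set, whose partner differed by -0.27. Cardiomyocyte array 1 had the highest mean over the mitosis list (9.31, against 8.99 and 8.87 in the other 2), and it also had the highest mean over fibroblast markers (9.08, against 8.91 and 8.84). The part of dividing non-muscle cells in the cardiomyocyte values was not tested.

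Mitotic promoters commonly hold a CHR element, searched here as TTTGAA on both strands. Stretches of 30 bases around the match are shown for 5 genes, 4 that fell and Cenpa, which did not pass the test, from RefSeq on GRCm38.p6, 5′ to 3′ on the strand of the gene and with the match in capitals. They lie at chr1:189688067-189688096 (Cenpf, minus strand), chr19:37376351-37376380 (Kif11, plus), chr7:80294434-80294463 (Prc1, plus), chr4:118437344-118437373 (Cdc20, minus) and chr5:30666890-30666919 (Cenpa, plus).
Cenpf: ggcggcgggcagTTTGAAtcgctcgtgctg
Kif11: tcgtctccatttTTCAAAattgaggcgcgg
Prc1: cctctggctcggTTTGAAttccgcggggtc
Cdc20: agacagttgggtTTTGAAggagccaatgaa
Cenpa: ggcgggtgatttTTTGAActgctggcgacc

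The match was in 21 of 26 windows of mitosis genes (80.8%) against 17.9% of all windows, and within 50 bases of the start in 20 of 26 (76.9%) against 4.94%. The 26 windows belong to 24 genes, and a site in overlapping windows, as in Prc1, counts in each. S phase windows held it in 3 of 25 cases (12%). They held the E2F site TTCCCGCC in 4 of 25 (16%) against 2.19% of all windows, in Prim1, Uhrf1, Rrm1 and Mcm3, and 0 of 26 mitosis windows did. Prc1 fell 4.44-fold and Cdc20 2.06-fold. The presence of the element in Cenpa, whose value lay on the other side of 0, is given beside the falls without a reading of its role.

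Inhibitors of the cell cycle and p53 targets were higher for 10 of 15 and lower for 4 (median 0.69). Mdm2, the p53 ubiquitin ligase and p53 target, was at 9.58, 9.56 and 9.43 in cardiomyocytes and at 11.25, 11.12 and 11.27 in iCMs, a 3.22-fold rise. Trp53inp1 rose 3.75-fold, the antiproliferative Btg2 3.46-fold and Zmat3 3.17-fold. The CDK inhibitors were divided. Cdkn2b and Cdkn2a rose 2.94-fold and 2.02-fold, and Cdkn1b, Cdkn2c, Cdkn2d and Cdkn1c fell 1.83-fold, 1.75-fold, 1.46-fold and 1.38-fold.

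Imprinted growth genes were lower for 9 of 15 and higher for 3 (median -0.54). Igf2, a fetal growth factor, was at 10.73, 11.01 and 10.64 in cardiomyocytes and at 7.31, 6.96 and 7.00 in iCMs, a 13.1-fold fall to near the fibroblast mean of 7.21. Plagl1, a zinc finger regulator of other imprinted genes, fell 6.23-fold, Peg3 3.34-fold and Grb10, an adaptor that restrains insulin signalling, 2.21-fold. Peg10, a retrotransposon-derived gene, went the other way, from 8.87, 8.20 and 8.37 to 12.44, 11.83 and 12.30, a 13.0-fold rise (adjusted p = 6.16e-12). The fibroblasts were at 10.83 for Peg10, between the groups.

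Genes that mark other cell types differed widely between the groups. Fewer cells of a type and less RNA per cell cannot be told apart in such bulk samples. Macrophage and leukocyte markers were higher in iCMs for 25 of 28 and lower for 0 (median 2.82), 24 of them at least 2-fold. Msr1 was at 5.32, 5.97 and 5.77 in cardiomyocytes and at 10.34, 10.72 and 10.65 in iCMs, against 12.33 in fibroblasts. The mean over the 28 markers was 6.40 to 6.56 in cardiomyocyte arrays and 8.89 to 9.23 in iCM arrays. It was 11.00 in the cardiac fibroblasts and 11.17 in the GFP- cells, so the iCM arrays lay between. In the cardiomyocyte arrays 6 markers that rose were below background, Itgam, Fcrls, Adgre1, Ms4a7, Mpeg1 and Msr1. Tyrobp rose 13.6-fold, the NADPH oxidase subunit Cybb 17.8-fold, Cd68 10.8-fold and the growth factor receptor Csf1r 7.26-fold. Ccr2 and Vsig4 were below background in both groups.

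Lists that macrophages share in rose beside those markers. Lysosome genes were higher for 20 of 23 and lower for 1 (median 1.37). Ctss, a cathepsin of antigen-presenting cells, rose 16.3-fold, the lipase Lipa 5.82-fold, the hexosaminidase Hexa 4.10-fold and cathepsin D (Ctsd) 3.42-fold, while the cholesterol transporter Npc1 fell 1.39-fold. Inflammatory and acute phase genes were higher for 12 of 20 and lower for 1 (median 0.61). The chemokines Ccl2, Ccl7, Cxcl2 and Ccl3 rose 11.3-fold, 8.50-fold, 8.44-fold and 7.72-fold, while Il6 (-0.00 ± 0.19) and Il1b (0.27 ± 0.20) did not pass the test. Interferon-stimulated genes were higher for 13 of 17 and lower for 0 (median 1.12), with Ifit3 up 4.18-fold, Oasl2 3.62-fold, Ifit1 3.39-fold and the RNA sensor Ddx58 3.27-fold, but Mx1, Rsad2 and Ifit2 differed by -0.06 to -0.03. The part of macrophages in these lists was not tested. In iCM arrays 1, 2 and 3 the list mean of the macrophage markers was 8.89, 9.23 and 9.06, and that of the lysosome genes 10.25, 10.48 and 10.37. That of the inflammatory genes was 8.39, 8.30 and 8.39, and that of the interferon genes 8.27, 8.16 and 8.34.

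Interferon-stimulated promoters were searched for GAAA, any 2 bases and GAAA, the core of the interferon response element, on both strands, and lysosomal ones for TCACGTGA, the E-box of the lysosomal network. The stretches shown pair members that rose with a member that did not pass the test, in the same notation and from the same source. They lie at chr19:34583363-34583392 (Ifit3, plus strand), chr19:34640794-34640823 (Ifit1, plus), chr12:26456553-26456582 (Rsad2, minus), chr7:142387908-142387937 (Ctsd, minus), chr2:164833749-164833778 (Ctsa, plus) and chr8:3500462-3500491 (Mcoln1, plus).
Ifit3: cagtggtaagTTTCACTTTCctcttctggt
Ifit1: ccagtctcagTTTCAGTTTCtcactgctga
Rsad2: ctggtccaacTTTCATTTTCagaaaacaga
Ctsd: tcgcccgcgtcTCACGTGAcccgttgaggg
Ctsa: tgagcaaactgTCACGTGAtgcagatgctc
Mcoln1: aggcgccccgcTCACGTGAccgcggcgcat

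The interferon motif was in 8 of 15 windows (53.3%) against 3.44% of all windows. The lysosomal motif was in 4 of 23 windows (17.4%) against 0.974%. Ctsa rose 3.17-fold, and the lysosomal channel Mcoln1 differed by 0.28 ± 0.11 (adjusted p = 0.052).

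Mesothelial and epicardial markers were higher for 10 of 13 and lower for 0 (median 1.53). Upk1b was at 6.97, 6.92 and 6.76 in cardiomyocytes and at 11.70, 12.56 and 12.11 in iCMs. Msln, mesothelin, was at 7.14, 7.25 and 7.04 against 10.71, 11.38 and 11.09, a 15.1-fold rise. For both genes the iCM arrays lay above the fibroblasts (9.60 and 7.62). Upk3b rose 6.98-fold, Tbx18 3.16-fold, Bnc1 2.89-fold and Wt1, a regulator of the epicardium, 2.01-fold, while Aldh1a2 (-0.18 ± 0.16) and Krt8 (-0.10 ± 0.15) did not pass the test. The mean over the list was 7.44 to 7.52 in cardiomyocyte arrays, 8.95 to 9.15 in iCM arrays, 8.34 in fibroblasts and 8.11 in GFP- cells.

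Fibroblast and matrix genes went both ways, with 16 of 41 higher and 18 lower (median -0.29). Their mean over the list was almost the same in the groups, 8.84 to 9.08 in cardiomyocyte arrays and 8.78 to 8.97 in iCM arrays, against 10.04 in fibroblasts. Aspn was at 11.64, 11.58 and 11.34 in cardiomyocytes and at 5.04, 5.65 and 5.09 in iCMs. Dpt was at 11.97, 11.78 and 11.61 against 6.65, 6.50 and 6.65, and Postn, periostin, at 12.24, 12.23 and 12.01 against 7.51, 8.97 and 8.29 (-3.90 ± 0.30). All 3 matrix genes were high in every cardiomyocyte array, and in iCMs Aspn was below background. The fibroblast means were 8.78 for Aspn and 11.86 for Dpt, and those of the 2-week GFP- cells were 5.87 and 7.57. Lum, lumican, fell at least 16.6-fold and Ogn 9.29-fold.

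Other matrix genes were well above the cardiomyocyte level in iCMs. S100a4, a calcium-binding protein of fibroblasts and leukocytes, was at 8.51, 8.45 and 8.37 in cardiomyocytes and at 12.68, 12.75 and 12.77 in iCMs, a 19.6-fold rise. Thbs1, thrombospondin, was at 9.04, 8.61 and 8.42 against 11.60, 11.74 and 11.75 (8.05-fold), and Col12a1 at 7.88, 7.95 and 7.79 against 10.72, 11.07 and 11.02 (8.37-fold). The collagenase inhibitor Timp1 rose 9.01-fold, the surface antigen Thy1 6.33-fold, the crosslinking enzyme Lox 4.85-fold and fibronectin Fn1 3.11-fold. Collagens did not move together, since Col1a1 rose 1.72-fold while Col1a2 fell 1.32-fold and Col3a1 1.57-fold. At least 2-fold, 13 of the 41 genes were higher and 7 lower, so most members lay closer together than that or were not called.

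**Figure D4:**
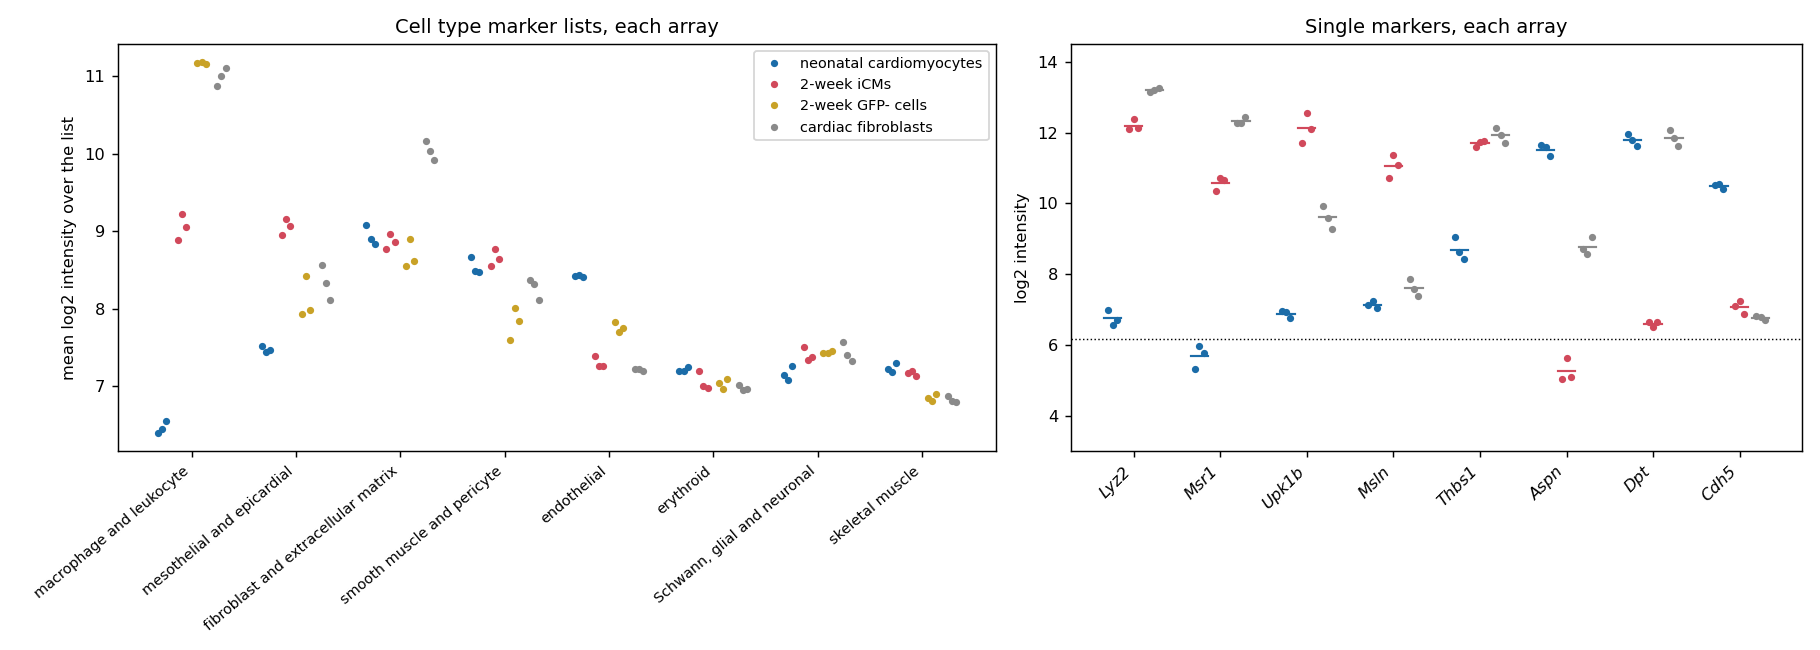
Left, the mean log2 intensity over each marker list in each array of neonatal cardiomyocytes (blue), 2-week iCMs (red), 2-week GFP- cells (yellow) and cardiac fibroblasts (grey); right, 8 single markers in each array, with bars for means and the background limit dotted. Macrophage and mesothelial lists are higher in iCMs than in cardiomyocytes and the endothelial list is lower, while the matrix list overlaps, with Thbs1 high in iCMs and Aspn and Dpt high in cardiomyocytes.

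Endothelial markers were lower in iCMs for 16 of 22 and higher for 2 (median -0.74). Cdh5, VE-cadherin, was at 10.51, 10.54 and 10.39 in cardiomyocytes and at 7.10, 7.23 and 6.87 in iCMs, a 10.7-fold fall. Pecam1 fell 5.11-fold, Emcn 7.73-fold and Kdr 3.25-fold. The mean over the list was 8.42 to 8.44 in cardiomyocyte arrays, 7.26 to 7.39 in iCM arrays and 7.22 in fibroblasts. Fabp4 fell with this list (7.69-fold), and the part of endothelial cells in the falls of Cd36 and other fatty acid genes, which capillaries also express, was not tested. Flt1, a receptor for vascular growth factors, went against the list, from 8.41, 8.33 and 8.50 to 9.71, 10.68 and 10.28 (3.50-fold).

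Smooth muscle and pericyte genes were higher for 8 of 15 and lower for 3 (median 0.34). Tagln, an actin-binding protein of smooth muscle and activated fibroblasts, rose 8.02-fold to near the fibroblast level (10.65 and 10.73), and Acta2 1.63-fold. Rgs5, a pericyte marker, fell 5.76-fold and calponin Cnn1 3.74-fold. Without cardiomyocyte array 2, 5 members were called higher, as Acta2, Myh11 and Notch3 lost their calls. Erythroid markers were lower for 2 of 8 and higher for 0, and lower for 1 without iCM array 2, cardiomyocyte array 2 or cardiomyocyte array 3. Schwann, glial and neuronal markers were higher for 3 of 11 and lower for 3, with Tubb3 (7.96-fold) and Prnp (5.08-fold), which fibroblasts also express at 10.97 and 10.56, highest among the rises. Sox10 did not pass the test (-0.06 ± 0.10). Set against the shares of all genes (22.7% higher and 19.4% lower), the Schwann list was near both. The erythroid list was near the lower share only.

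Skeletal muscle genes were higher for 4 of 25 and lower for 6 (median -0.03), and 15 did not pass the test. These counts were near the shares of all genes called higher and lower (22.7% and 19.4%). The largest difference of the list was the fall of Casq1 (-3.65). Myog was also lower (-0.39), a call lost without iCM array 2 (adjusted p = 0.131) or 3 (0.178). The Myog call was lost as well without cardiomyocyte array 1 (0.0528) or 2 (0.160) and with the 6 arrays alone (0.063). Tnnt3, the fast skeletal troponin T, was at 8.95, 8.88 and 9.09 in cardiomyocytes and at 11.10, 11.52 and 11.16 in iCMs, a 4.88-fold rise. The fast myosin Myh1 rose 2.41-fold, the fast actinin Actn3 2.01-fold and Mylpf 1.50-fold. The muscle determination factor Myod1 differed by 0.04 ± 0.10 and Myf5 was below background in both groups.

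Genes of TGF-beta and BMP signalling were higher for 17 of 26 and lower for 3 (median 0.45). Among ligands, Tgfb3 was at 7.50, 7.32 and 7.30 in cardiomyocytes and at 10.05, 11.11 and 10.53 in iCMs (9.13-fold). Tgfb2 was at 8.61, 8.76 and 8.48 against 10.73, 10.82 and 10.75 (4.44-fold). The iCM arrays of both genes were above the fibroblasts too, at 8.48 and 8.69. Bmp2 rose 2.25-fold and Inhba 2.27-fold, while Bmp10 and Bmp7 (2.24-fold) fell. The receptors Tgfbr1 and Tgfbr2 rose 2.22-fold and 2.16-fold and the co-receptor Tgfbr3 fell 1.57-fold. Among targets and feedback inhibitors Smad7 rose 2.40-fold and Id3 2.32-fold, whereas Id2 did not pass the test (0.09 ± 0.14).

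Genes of cholesterol synthesis were divided, with 8 of 19 higher, 6 lower and a median of 0.03. Hmgcs1 at the entry of the pathway fell 2.03-fold and Idi1 2.00-fold, while the late enzymes Sc5d and Msmo1 rose 2.40-fold and 2.08-fold.

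**Figure D5:**
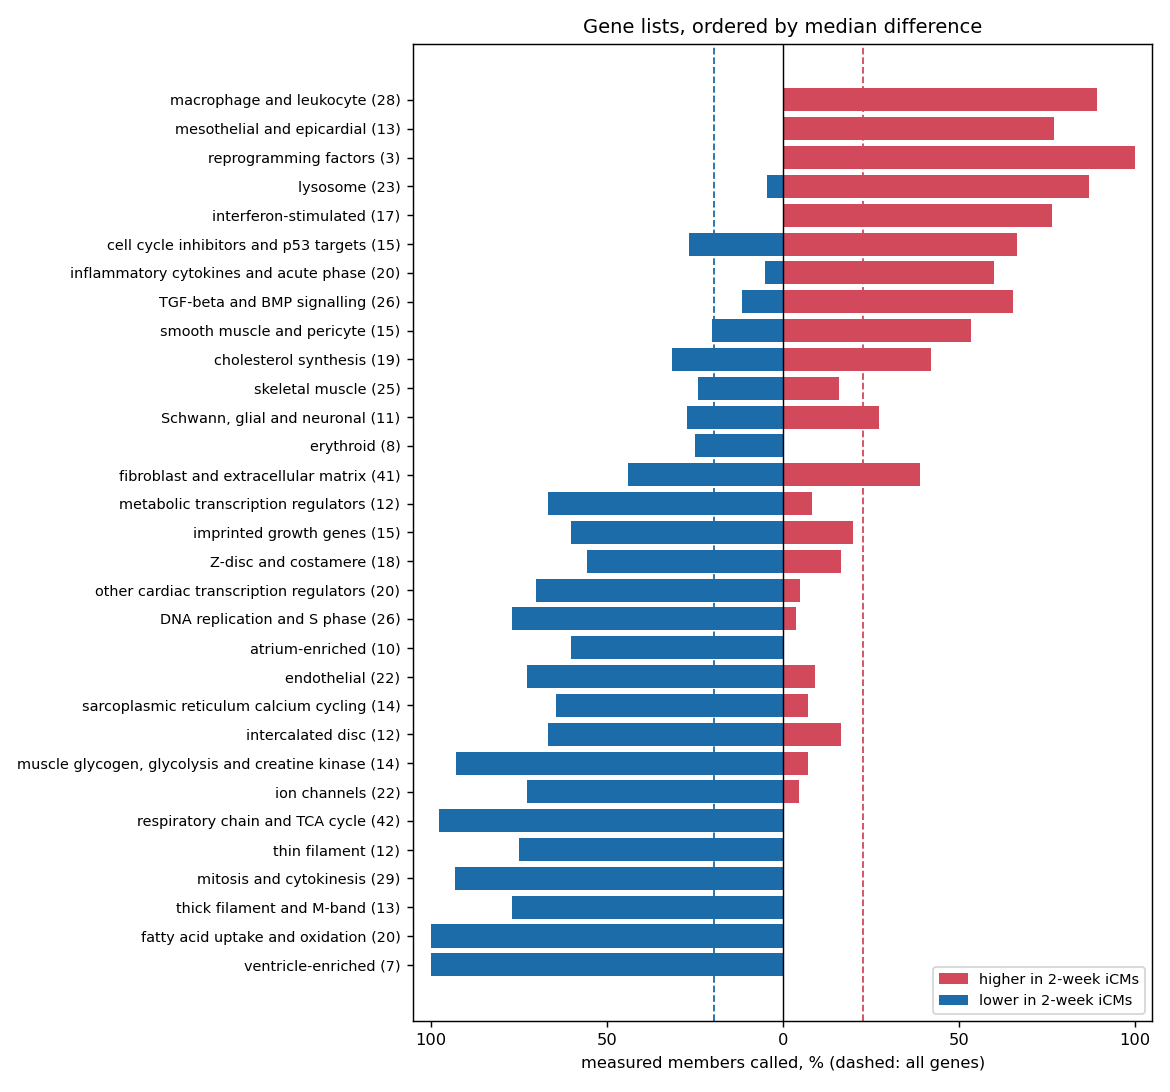
Percent of measured members called higher (red, right) or lower (blue, left) in 2-week iCMs than in neonatal cardiomyocytes for 31 gene lists, ordered by their median difference, with the number measured in brackets and the shares over all genes (22.7% and 19.4%) dashed. Ventricular, fatty acid, respiratory and mitotic genes stand at the lower end and macrophage and mesothelial genes at the upper end.

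The 3 iCM arrays differed among themselves in some of these genes. Over all genes, array 1 was lowest and array 2 highest of the 3 for 22.6% of genes, but for 12 of 14 calcium-cycling genes (85.7%), 21 of 28 macrophage markers (75%), 17 of 23 lysosome genes (73.9%) and 11 of 18 Z-disc genes (61.1%). The mean over the calcium-cycling list was 9.60, 10.38 and 9.98 in iCM arrays 1, 2 and 3, against 11.49, 11.51 and 11.41 in the cardiomyocyte arrays. Its median SD between arrays was 0.404 in iCMs and 0.086 in cardiomyocytes, whereas over all genes the median SDs were 0.127 and 0.121. Of 54 called genes of the lists with an SD over 0.3 in iCMs, 40 had this order, among them Pln, Hrc, Myh6, Myom1, Slc8a1 and Ppargc1a, but also the macrophage gene Ms4a7, the matrix gene Postn and Tgfb3. The order was also held by 9 of 14 muscle glycogen, glycolysis and creatine kinase genes (64.3%) and 7 of 12 thin filament genes (58.3%). Intercalated disc genes showed it for 7 of 12 (58.3%), thick filament and M-band genes for 7 of 13 (53.8%) and atrium-enriched genes for 5 of 10 (50%). Respiratory (22 of 42, 52.4%), fatty acid (10 of 20, 50%) and fibroblast and matrix genes (20 of 41, 48.8%) held it too. So did smooth muscle (7 of 15, 46.7%) and mesothelial genes (6 of 13, 46.2%). The share of all genes was not exceeded, or only slightly so, in other lists. Among these were 0 of 7 ventricle-enriched genes, 1 of 22 endothelial genes (4.55%) and 3 of 20 other cardiac regulators (15%). Skeletal muscle genes (6 of 25, 24%) and ion channels (6 of 22, 27.3%) were also among them. Nppa, Gja5 and Dsg2 ran the opposite way, with array 1 highest and array 2 lowest. This order and the SD limit were picked after the values had been seen, and the cause was not tested.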

How the data were processed

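The deposited table held log2 intensities per probe set, which the authors made with RMA per the submitters' processing notes (version not given in the sources used here); per the labels' protocols, the PicoPure and MessageAmp II-biotin kits served for isolation and labelling. Of 28682 probe sets, 21755 named 1 gene; the brightest was kept for each of 19912 genes (997 had several). With limma 3.58.1 (R 4.3.3), each gene was fitted over all 18 arrays by group (6 groups, no covariate), 12 residual and 6.96 prior degrees of freedom, and two-sided p-values adjusted over all genes. The number of arrays limits the precision. Each list is described by counts and its median beside those of all genes; 550 of 589 listed genes were measured. The 31 lists, the comparison and the rule for named genes (the 15 largest called rises and 15 largest falls without overlap between groups, leaving out predicted genes, and list members) were chosen with earlier results of these data known. Replicate numbers did not pair arrays (correlations of deviations -0.161, 0.154 and -0.214). The fit was tested on simulated data. 14 alternatives were run.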

Additional observations from a re-analysis of the deposited data

Results flagged for a closer look

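Of the 30 named genes, 15 differed in their distance from cardiomyocytes between 2 and 4 weeks, by the limma test of 4-week against 2-week iCMs, which called 2297 of all 19912 genes (11.5%). The 30 genes were picked for extreme values in the same 2-week arrays, so some movement back towards cardiomyocytes comes with that choice, and the count is a description. The muscle and metabolic genes among these 15 rose towards cardiomyocytes, Nebl by 2.35, Pln by 2.06, Mlip by 1.37, Cox8b by 1.11, Cd36 by 1.04, Tecrl by 0.95, Fsd2 by 0.82 and Apobec2 by 0.47 log2. The named muscle genes Myl2 (0.23), Myl3 (-0.004) and Trim55 (-0.19) and the growth factor Bmp10 (0.02) were not called between the times. Some macrophage genes came down, with changes of -0.95 for Lilr4b, -0.94 for Msr1, -0.83 for Mpeg1 and -0.47 for Lyz2. C3ar1 (-0.09), Wfdc17 (-0.005) and Gpnmb (-0.32) were not called between the times. Scd1 changed by -0.75 and Nupr1 by -0.61. Dpt moved further from cardiomyocytes, by -0.89.

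Probe sets left out of the comparison for lack of 1 gene also differed between the groups. Of 5335 with no gene name, 1399 were called (26.2%) in a fit over every probe set, 524 higher and 875 lower. Of 1592 that name several genes, 560 were called (35.2%), 304 higher and 256 lower. Both shares were below the 42.1% of all genes called in the main fit.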

How the results depend on the processing

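Across the 14 alternatives the number of called genes ran from 7513 to 9613, with 4102 to 4984 higher and 3343 to 4629 lower. The share called higher ran from 49.8% with quantile normalization to 57.5% without genes under the 25th percentile (54% as reported). Of 456 called genes among the 566 listed or named, 423 were called under all of the 14 alternatives that tested them. A further 33 were lost under at least 1, while 36 others gained a call. No value called in the main fit or in the alternative changed direction, and genes called in neither were not counted. Leaving out 1 array, the smooth muscle members called higher numbered 5 to 8 and the erythroid members called lower 1 to 3. Schwann, glial and neuronal members called lower numbered 1 without dim genes and 5 with array weights, against 3. With the replicate number as a block 8527 genes were called, 4591 higher and 3936 lower. By deviations from the group mean, 1 of 3 cardiomyocyte arrays correlated best with the iCM array of its own number. Signal near background or near the array's highest values limits what can be seen.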
